A study of Rattus norvegicus with 12 samples.

Results

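The genes described here are 78 rat genes. Their RNA stood higher in autoreactive T cells of the blood than in such cells at every sampled site of the central nervous system (CNS). The genes were chosen by a rule on measured values from all 26405 gene identifiers in the files. Levels are in CPM, in which each library's gene counts are scaled to the same fixed total, and means are over the 3 libraries of a compartment. A member had a mean of at least 5 CPM in blood that was also at least 3 times the mean in cerebrospinal fluid (CSF), in spinal cord meninges and in CNS parenchyma. Of the 9022 genes with at least 5 CPM in blood, 78 met the rule, or 0.865%.

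All 12 libraries came from wild type Lewis rats with experimental autoimmune encephalomyelitis and hold RNA of CD4+ T cells that recognise MBP, myelin basic protein of the nerve sheath. The cells carried green fluorescent protein and were sorted by it at 4°C, with 3 libraries of messenger RNA for each of the 4 compartments, blood and the 3 CNS sites. The labels give no age, no time after disease onset and no origin of the T cell line. The labels also leave unsaid whether libraries of 1 compartment derive from different animals. A p-value here thus measures the spread between libraries and no more, and that spread may be technical.

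As background, such T cells reach the CNS from the blood, through the vessels of the meninges and of the tissue, and CSF cells exchange with the meninges. T cells in the circulation are known to carry programmes for recirculation, among them the transcription factor KLF2, the egress receptor S1PR1 and the homing receptor L-selectin, which T cells often lower when they stay in a tissue or meet antigen. Blood can also bring RNA of red cells, platelets and other white cells into a sorted sample. Names are not in the files, and 0 identifiers were found in the reference table used here. Whether any gene named in this background is a member was therefore not analysed here, nor were marker genes of the sorted or of other cell types. At most 4 members are given by identifier, and the others by their rank, and no sequence is printed.

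Libraries held 11277725 to 22056664 gene counts. A count of 0 in a single library allows a level of up to 0.136 to 0.266 CPM, which is 3 counts. Among all entries, reads aligned to several places made up 35.8% to 43.9% in 10 libraries, but 61.4% in meninges replicate 2 and 65.2% in blood replicate 3. Meninges replicate 3 had at least 1 count for 18299 genes, the other 11 libraries for 14525 to 16096.

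The choice of the members gave the blood levels and their ratios to the CNS sites, which are a description and carry no test. Blood means ran from 5.18 to 1301 CPM with a median of 26.2. They reached 100 CPM in 9 members, lay between 10 and 100 CPM in 59 and below 10 CPM in 10. At some CNS site 32 members still had a mean of 10 CPM or more, and 21 did in parenchyma. The ratio of the blood mean to the highest CNS mean had a median of 3.39 and lay between 3 and 4 in 61 members, between 4 and 5 in 9, between 5 and 10 in 6 and above 10 in 2. Most members thus stood near the limit of the rule. The 3 members nearest inside it had ratios of 3.00, 3.00 and 3.01, and the 3 genes nearest outside had 2.99, 2.99 and 2.98. Another 242 genes with the blood level asked had ratios between 2 and 3.

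**Figure D1:**
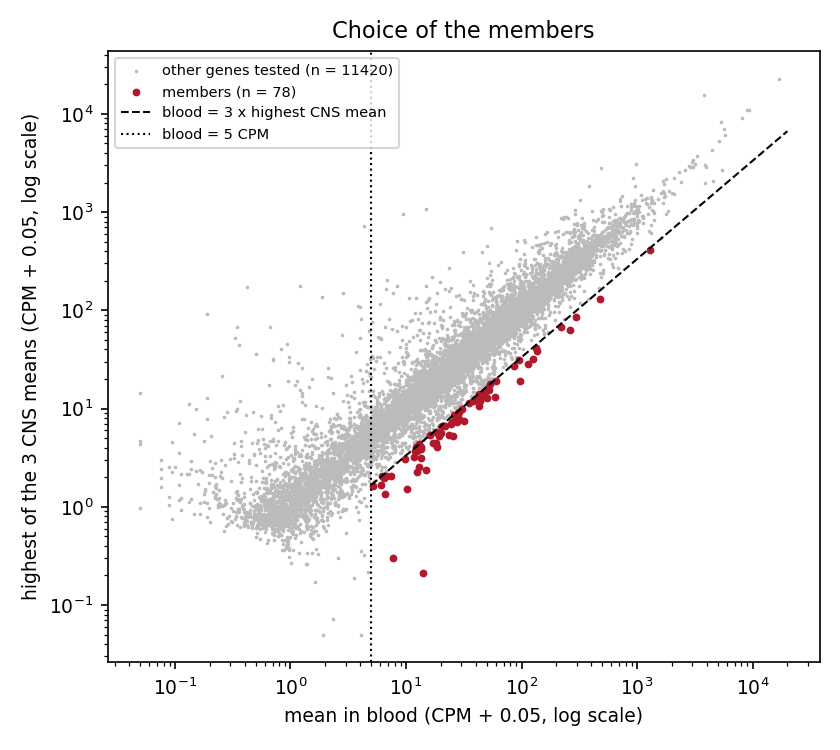
Mean level in blood (x axis) against the highest of the 3 CNS means (y axis), both in CPM on log scales with a small constant added, for the genes tested; the 78 members are red. The dashed and dotted lines are the limits of the rule, and most members lie close under the dashed line, with 2 far below it.

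Meninges set the limit most often. The highest CNS mean was that of meninges in 57 members, of CSF in 16 and of parenchyma in 5, against 27.4%, 37.6% and 35.0% of all genes tested. Of the genes at 5 CPM or more in blood, 239 were at least 3 times higher there than in parenchyma, 138 than in CSF and 99 than in meninges. The median ratio of blood over the members was 4.97 to parenchyma, 4.06 to CSF and 3.48 to meninges. Ratios of at least 10 were found in 16 members for parenchyma, 6 for CSF and 2 for meninges. With edgeR's quasi-likelihood test at a Benjamini-Hochberg adjusted p under 0.05, all 78 members were lower at each CNS site than in blood. The background is 20.0% of the 11498 genes tested for CSF, 19.0% for meninges and 25.7% for parenchyma, and nothing is read from the comparison, since the rule used these same contrasts. In such bulk samples, fewer cells with a transcript and less transcript per cell cannot be told apart.

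The members together took 0.504% ± 0.0297 (SD, n = 3) of all blood gene counts. In CSF the share was 0.126% ± 0.00781, in meninges 0.145% ± 0.0128, and parenchyma had the lowest, 0.0846% ± 0.0121. By library, their summed level was 4955, 4795 and 5370 CPM in blood, and 1239, 1193 and 1345 CPM in CSF. It was 1302, 1533 and 1515 CPM in meninges and 776, 776 and 986 CPM in parenchyma. The 3 parenchyma libraries all lay below every CSF and every meninges library, while the ranges of CSF and meninges overlapped. Within each library number, however, meninges lay above CSF, by 63.7, 339 and 170 CPM for numbers 1, 2 and 3. The mean sum in parenchyma was 0.583 times that in meninges and 0.672 times that in CSF, each with a two-sided exact permutation p of 0.1 (0.15 adjusted over 3 comparisons), the smallest that 3 against 3 libraries can give. Meninges stood at 1.15 times CSF (exact permutation p = 0.2, 0.2 adjusted). The sum gives most weight to the abundant members and does not describe each of the 78. Without the most abundant member the mean sums were 636 ± 134 CPM in parenchyma, 1037 ± 107 CPM in meninges and 908 ± 98.6 CPM in CSF (SD, n = 3). Paired by library number, each of the 3 comparisons had 1 sign in 3 of 3 pairs and an exact sign-flip permutation p of 0.25, and 3 pairs allow none smaller. This pairing was added after seeing the data. These 3 comparisons do not involve blood, against which the rule set each site, although the rule holds all 3 sites under the same limit.

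**Figure D2:**
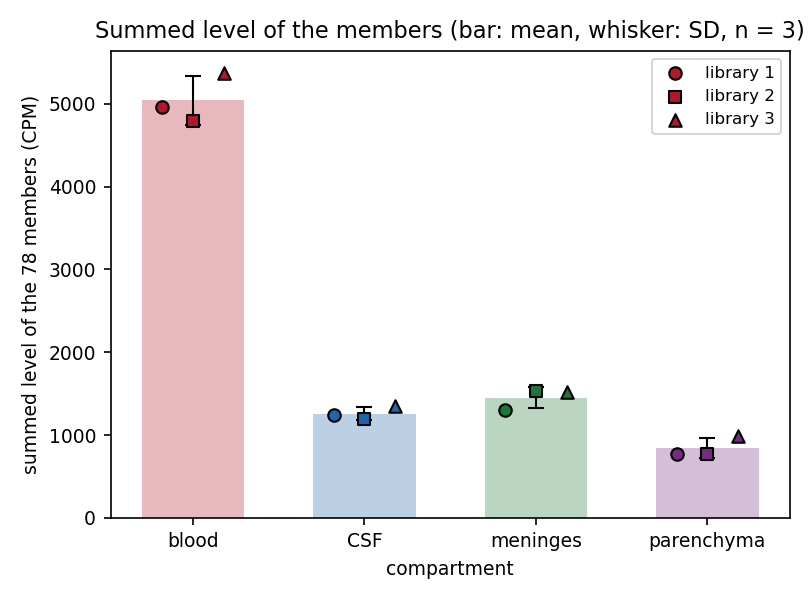
Summed level of the 78 members in CPM (y axis, from 0) for the 4 compartments (x axis); bars are means, whiskers SD over 3 libraries, and the symbols mark libraries 1, 2 and 3. Blood lies at 4795 to 5370 CPM, and parenchyma, at 776 to 986 CPM, below the CSF and meninges libraries.

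The most abundant member stood at 1279, 1382 and 1242 CPM in blood, 355, 369 and 328 CPM in CSF, 376, 488 and 375 CPM in meninges, and 212, 222 and 195 CPM in parenchyma. No library of a compartment overlapped with those of another, with parenchyma the lowest. Between meninges and parenchyma its level changed by -0.93 in log2 units (SE 0.11, adjusted p = 0.000280), and between CSF and parenchyma by -0.72 (SE 0.11, adjusted p = 0.000275). The difference of meninges from CSF, 0.21 (SE 0.11), had an adjusted p of 0.363.

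The member second in blood level stood at 439, 503 and 488 CPM in blood, 102, 113 and 104 CPM in CSF, 114, 155 and 124 CPM in meninges and 43.7, 56.0 and 58.4 CPM in parenchyma. Here too the parenchyma libraries were the lowest, with log2 fold changes of -1.26 (SE 0.13, adjusted p = 0.000121) against meninges and -0.99 (SE 0.13, adjusted p = 9.18e-05) against CSF. For meninges against CSF, with 0.28 on the log2 scale, the adjusted p was 0.308, or 0.0463 once the library number was a block. The third, at 276, 311 and 295 CPM in blood, kept 88.0, 103 and 64.4 CPM in CSF and 73.3, 111 and 71.8 CPM in meninges, which overlapped. In parenchyma it stood at 18.5, 23.3 and 23.7 CPM, far below both. Among the members it had the largest called fall from CSF to parenchyma, with a log2 fold change of -1.94 (SE 0.20, adjusted p = 1.30e-05). Of the 10 members highest in blood, 6 passed the test for a lower level in parenchyma against both other CNS sites. The shares were 20.5% of all members and 4.81% of all genes tested. The 10 were picked by their level, and no share was computed for other genes of like level.

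Over the whole set, the comparison of parenchyma with meninges separated the members most. In parenchyma 25 of 78 members (32.1%) were lower, against 5.37% of all genes tested, and 0 were higher, against 6.58%. At an unadjusted p under 0.05 the counts were 31 lower (39.7%, against 12.7%) and 0 higher (against 13.4%). DESeq2 called 27 lower and 0 higher, against 5.47% and 7.19% of the genes it tested. With the library number as a block, 34 were lower and 0 higher (9.77% and 11.3% of all genes tested). The 25 called members had log2 fold changes of -0.66 to -5.54, with a median of -1.26. The median over all 78 was -0.35, against 0.00 over all genes tested, and 68 members had a negative value, as did 50.7% of the genes tested. All 3 parenchyma libraries lay below all 3 meninges libraries in 33 members (42.3%), against 19.7% of the genes tested.

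Against CSF, 19 members (24.4%) were lower in parenchyma and 1 was higher, where 15.6% and 17.1% of all genes tested were. The share that fell is closer to its background here than in the comparison with meninges. The median log2 fold change was -0.26 over the members and 0.00 over all genes, and the called falls ran from -0.49 to -1.94. At an unadjusted p under 0.05, 21 were lower (26.9%, against 20.9%) and 1 higher (against 22.0%). DESeq2 called 19 lower and 0 higher, against 13.7% and 14.9% of the genes it tested. The block raised the counts to 24 lower and 3 higher, with 21.5% and 21.7% of all genes. All 3 parenchyma libraries lay below all 3 CSF libraries in 25 members (against 23.7% of genes tested) and above them in 1 (against 20.0%). The 1 member called higher stood at 2.31, 2.41 and 3.01 CPM in CSF and 3.64, 3.84 and 3.56 CPM in parenchyma (log2 fold change 0.55, SE 0.18, adjusted p = 0.0314). No member was called higher once CSF replicate 1, CSF replicate 2 or any 1 of the parenchyma libraries was left out, nor by DESeq2, at an adjusted p under 0.01 or with genes unfiltered. Parenchyma was lower than both other CNS sites in 16 members (20.5%, against 4.81% of all genes tested) and lower than at least 1 of them in 28 (35.9%, against 16.1%). Parenchyma had the lowest CNS mean in 61 members, CSF in 13 and meninges in 4, against 48.2%, 40.9% and 10.9% of all genes tested.

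Between meninges and CSF few members differed in the fit without the block. In meninges 3 were higher (3.85%, against 1.97% of all genes tested) and 0 lower (against 0.539%). At an unadjusted p under 0.05 the counts were 16 higher (20.5%, against 8.97%) and 0 lower (against 6.90%). DESeq2 called 5 higher and 0 lower, against 2.80% and 1.48% of the genes it tested. With the library number as a block, 12 members (15.4%) were higher and 0 lower, against 5.25% and 3.84% of all genes. The count of 3 fell to 0 without CSF replicate 1 or meninges replicate 3 and to 1 without CSF replicate 2. It was 2 without blood replicate 1 or 3, CSF replicate 3, meninges replicate 1 or 2, or any 1 parenchyma library. In all 3 libraries meninges lay above CSF for 19 members (24.4%, against 13.3%) and below it for 0 (against 8.27%).

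**Figure D3:**
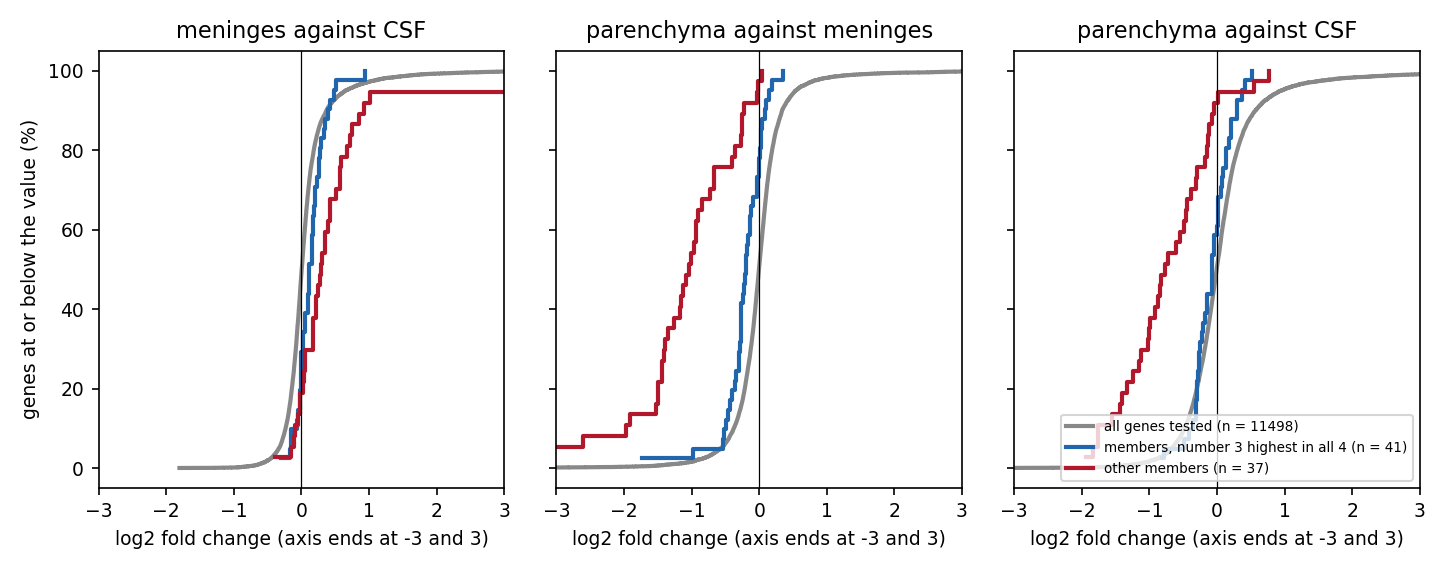
Cumulative share of genes (y axis, %) by log2 fold change between CNS sites (x axis, cut at -3 and 3) for all genes tested (grey), the 41 members with library 3 highest in all 4 compartments (blue) and the other 37 (red). In both comparisons of parenchyma the red line lies left of the grey one over most of its length, with medians of -1.04 and -0.76. The medians of the blue line are -0.20 against meninges and -0.07 against CSF, and those of the grey line -0.004 and -0.005.

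The members were not alike in how they varied among libraries of 1 compartment. The rule did not compare such libraries, but its means take in each of them, so a high blood library 3 helps a gene to pass. Blood library 3 was the highest of its compartment in 55 members, and without it 54 of the 78 met the rule. In 41 of 78 members (52.6%) the library numbered 3 was the highest of its 3 in each of the 4 compartments, against 5.27% of the genes tested and 5.71% of those with at least 5 CPM in blood. Blood is 1 of these 4, so this share is partly set by the rule. Over the 3 CNS sites alone, library 3 was the highest at each in 42 members, against 9.23% of the genes tested. Library 1 was highest in all 4 compartments in 2 members and library 2 in 2, against 4.74% and 6.98%. Library 2 was the lowest in all 4 in 18 members (23.1%, against 11.5%), 16 of them among the 41. In the fit with the number as a block, levels differed between numbers in 45 members (57.7%, against 16.0% of genes tested). The count was 34 to 45 with 1 library left out and 43 in the 9 CNS libraries alone (19.5% of the genes tested there).

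The member sixth in blood level is an example. It stood at 134, 121 and 155 CPM in blood libraries 1, 2 and 3, and at 36.2, 20.2 and 44.6 CPM in CSF. In meninges it stood at 34.8, 35.0 and 46.5 CPM, and in parenchyma at 22.4, 21.0 and 36.4 CPM. Library 3 was the highest each time, while each blood library stayed above all 9 CNS libraries. Its levels differed between numbers with an adjusted p of 0.00661 (edgeR). Between parenchyma and meninges it gave -0.49 on the log2 scale, where the adjusted p was 0.239 without the block and 0.0190 with it.

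Over all 78 members, library 3 exceeded library 2 by a median factor of 1.29 in blood. At the CNS sites that factor was 1.31 (CSF), 1.37 (meninges) and 1.50 (parenchyma). Over all genes tested these 4 medians were 1.02, 1.01, 1.02 and 1.02. Among the 41 they were 1.33, 1.89, 1.56 and 1.77, and among the other 37 they were 1.17, 0.965, 0.935 and 1.04. The share of entries aligned to several places was 65.2%, 40.2%, 43.9% and 42.2% in the libraries numbered 3, in the order blood, CSF, meninges and parenchyma, and 36.5%, 40.4%, 61.4% and 37.2% in those numbered 2. The share outside any gene was 15.5%, 18.8%, 21.0% and 18.6%, and 19.7%, 20.7%, 16.7% and 21.4%. Without blood replicate 3 and meninges replicate 2, 35 members differed between numbers (8.81% of the genes tested then). The part of these shares in the pattern was not tested.

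**Figure D4:**
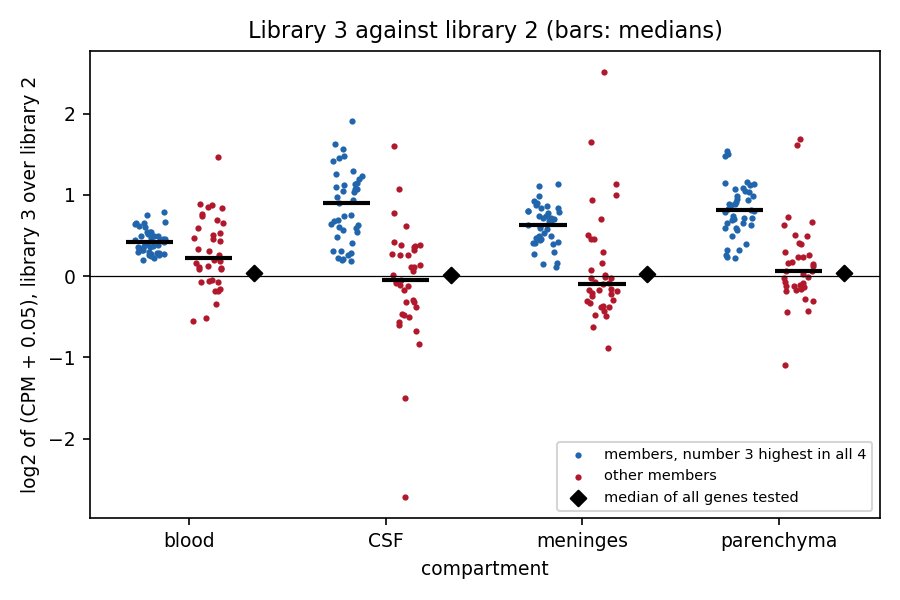
Level in library 3 over library 2 of the same compartment, as log2 of the ratio (y axis), for the 41 members with library 3 highest in all 4 compartments (blue) and the other 37 (red); black bars are medians and diamonds the medians of all genes tested. The blue points lie above 0 in all 4 compartments by definition, with their largest median in CSF.

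The 2 kinds of member also differed in their course through the CNS, as a description of groups made after the values were seen. The 41 members had blood means of 6.19 to 137 CPM, and their ratios of blood to the highest CNS mean ran from 3.00 to 4.35. Together they stood at 1632 CPM in blood, then 447 CPM in CSF, 478 CPM in meninges and 396 CPM in parenchyma. Without the block, 2 of them were called lower in parenchyma than in meninges, against 5.37% of all genes tested, and 1 lower than in CSF, against 15.6%. In that fit differences between library numbers, by which the 41 were chosen, count as spread. The other 37 summed to 3408 CPM in blood, then 813 CPM in CSF, 972 CPM in meninges and 449 CPM in parenchyma. They hold 23 of the 25 members lower in parenchyma than in meninges, 18 of the 19 lower than in CSF and 15 of the 16 lower than both. With the library number as a block, 6 of the 41 and 28 of the 37 were lower in parenchyma than in meninges, against 9.77% of all genes tested. Against CSF, 6 of the 41 were then lower and 2 higher, and 18 of the 37 lower and 1 higher. Of all genes tested, 21.5% were lower and 21.7% higher. The median log2 fold change of parenchyma against meninges was -0.20 in the 41 and -1.04 in the 37.

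**Figure D5:**
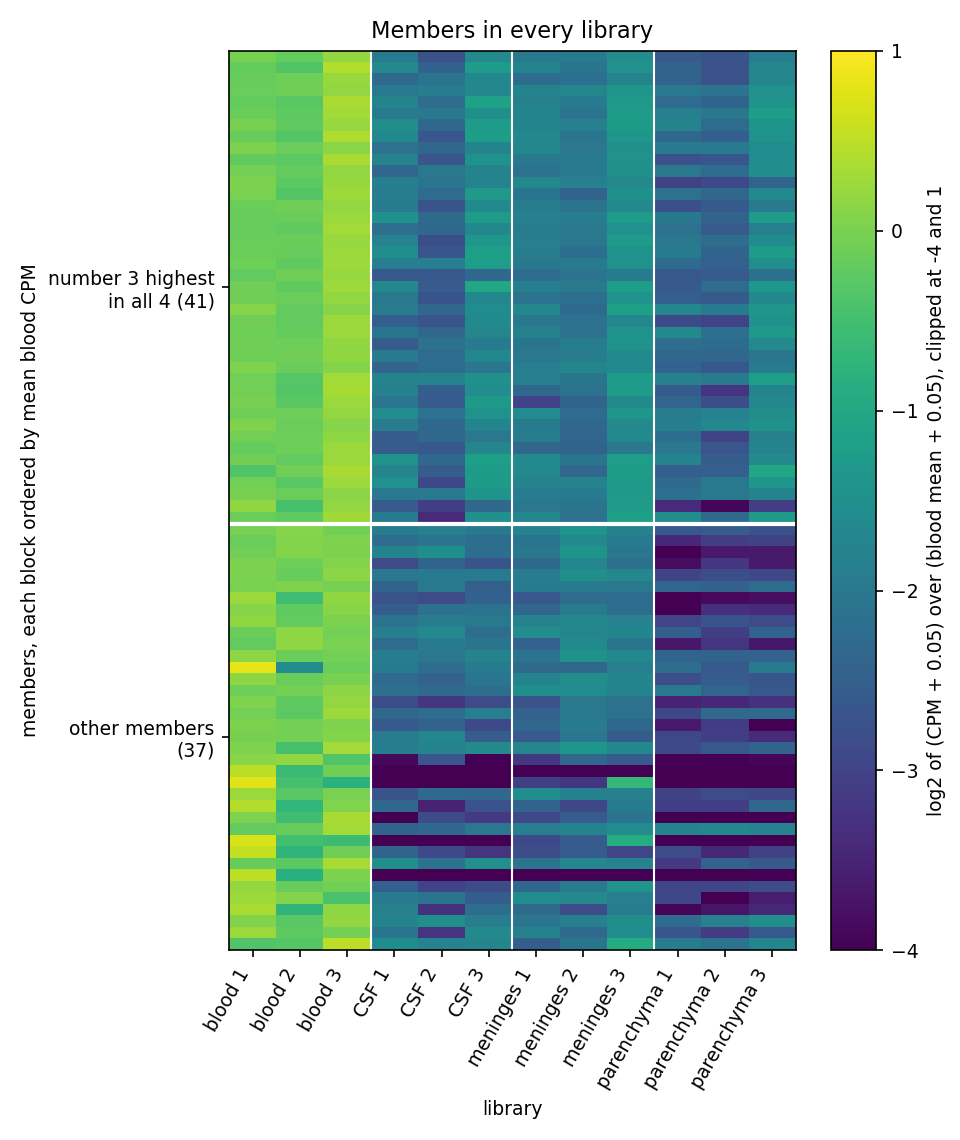
Level of each of the 78 members (rows) in each of the 12 libraries (columns), as log2 relative to the member's blood mean, with colours clipped at -4 and 1. The upper block holds the 41 members with library 3 highest in all 4 compartments, and in the lower block of 37 the parenchyma columns are the darkest for most rows.

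The genes next to the members shared the pattern of the library numbers. Of the 242 genes with blood 2 to 3 times the highest CNS mean, 140 (57.9%) had library 3 highest in all 4 compartments. Of the 71 genes with the opposite pattern, at 5 CPM or more and at least 3 times blood at each CNS site, 4 (5.63%) did. Blood is among the compartments, so the choice of the sets partly fixed these shares. A high blood library 3 helps a gene into the 242 and works against entry into the 71. Shares over the CNS sites alone were not computed for these sets. Levels nevertheless differed between library numbers, in any order, in 29 of those 71 (40.8%), in 152 of the 242 (62.8%) and in 45 of the 78 members (57.7%), against 16.0% of all genes tested. The fall from meninges to parenchyma was called in 46 of the 242 (19.0%) and in 25 of the 78 members (32.1%). It was called in 4 of the 71 (5.63%) and in 5.37% of all genes tested. These sets were compared as counts only.

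A further 8 members had blood libraries that differed at least 2 times. The median was 1.37 times over all members and 1.12 times over the genes with at least 5 CPM in blood. In each of the 8, blood library 1 was the highest. A high blood library also raises the mean that the rule used, and the share of all genes with such a spread was not computed. The order was 1, 3, 2 in 6 and 1, 2, 3 in the other 2, and the 41 members above include 0 of the 8. The widest spread among these was 75.5, 14.3 and 39.7 CPM in blood, in a member with 7.16 to 11.9 CPM over the 9 CNS libraries. Its lowest blood library was 1.21 times its highest CNS library. In 77 of 78 members the lowest blood library lay above the highest CNS library, against 19.2% of the genes tested. It did so by at least 2 times in 59 (against 1.10%) and by at least 3 times in 13 (against 0.226%). These are values the rule used, and nothing is read from the counts.

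The steepest ratios belonged to 2 of these 8 members, which were nearly absent from the CNS sites. The first had 19.7, 9.35 and 13.3 CPM in blood, on 682 counts, while the 3 CSF libraries together held 4 counts and those of meninges and of parenchyma 6 each. From the counts its blood level was 93.0 times that in meninges, with an exact 95% binomial interval of 42.5 to 254 that covers counting error only. The second had 10.9, 4.30 and 7.76 CPM in blood, on 367 counts, and 11 counts came from CSF, 10 from meninges and 4 from parenchyma. Its ratio to meninges was 30.0 (interval 16.1 to 63.1). Both entered the tests through their blood level, and the few counts at the CNS sites allow no statement on differences between those sites.

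A pair of the 8 was almost absent from CSF and parenchyma and present in meninges. ENSRNOG00000049424 stood at 19.0, 8.14 and 7.76 CPM in blood and 0.136, 0.344 and 0.210 CPM in CSF. In meninges it had 1.51, 1.92 and 6.16 CPM, and in parenchyma 1, 0 and 2 counts. ENSRNOG00000029886 stood at 23.2, 9.75 and 7.69 CPM in blood, 0.0907, 0.738 and 0.0700 CPM in CSF and 1.60, 1.44 and 8.46 CPM in meninges, and had 4 counts in parenchyma. Both were highest in blood library 1 and in meninges library 3, where the latter exceeded its own lowest blood library. Meninges library 3 held 96 of the 137 meninges counts of ENSRNOG00000049424 and 132 of the 168 of ENSRNOG00000029886. It also had the most genes with a count of the 12 libraries, 18299, and blood library 1 the most in blood, 16096. Whether the pattern of the pair is tied to these features of the libraries was not tested. Over the 12 libraries log2(CPM + 1) of the pair correlated at a Pearson r of 0.993 (Spearman 0.951), as a description of points that share compartments and libraries.

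From CSF to meninges log2 fold changes were 3.78 (SE 0.72, adjusted p = 0.0134) for ENSRNOG00000049424 and 3.61 (SE 0.88, adjusted p = 0.0497) for ENSRNOG00000029886, the largest called rises of any member between CNS sites. From meninges to parenchyma they had the largest falls, with log2 fold changes of -5.54 (SE 0.94, adjusted p = 0.00239) and -5.43 (SE 1.17, adjusted p = 0.00946). These fits rest on 3 and 4 counts in parenchyma, and from the counts the blood level was 194 times (interval 66.1 to 944) and 171 times (66.5 to 630) that of parenchyma. With 1 library left out in turn, the rise of ENSRNOG00000029886 was no longer called in 8 of 12 settings, those without any 1 CSF or parenchyma library or without meninges replicate 1 or 3, with adjusted p-values of 0.0537 to 0.285. That of ENSRNOG00000049424 was lost in 3 of 12. Without meninges replicate 3 the rises from CSF were 2.84 (adjusted p = 0.0640) and 2.21 (adjusted p = 0.285). Without CSF replicate 1 they were 3.45 (adjusted p = 0.0640) and 3.08 (adjusted p = 0.156), and without CSF replicate 2 they were 4.25 (adjusted p = 0.0535) and 5.46 (adjusted p = 0.0722). The ratio of blood to the highest CNS mean was 3.64 and 3.53, and 6.78 and 8.92 without meninges replicate 3, so that library held the pair near the limit of the rule.

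The largest falls between CNS sites outside that pair were found in ENSRNOG00000014723 and ENSRNOG00000020287. ENSRNOG00000014723 stood at 12.8, 8.60 and 15.9 CPM in blood, 0.680, 1.67 and 1.33 CPM in CSF, 1.60, 2.08 and 2.89 CPM in meninges and 0.195, 0.391 and 0.445 CPM in parenchyma. Its parenchyma libraries lay below all others. The log2 fold change of parenchyma against meninges was -2.60 (SE 0.47, adjusted p = 0.00336), on 17 counts in parenchyma and 89 in meninges. Against CSF it was -1.75 (SE 0.49, adjusted p = 0.0151), with an adjusted p of 0.0770 without CSF replicate 2 and 0.0628 without parenchyma replicate 1.

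ENSRNOG00000020287 stood at 8.05, 7.05 and 4.90 CPM in blood, 1.68, 1.57 and 1.12 CPM in CSF, 2.22, 2.08 and 1.80 CPM in meninges and 0.846, 0.130 and 0.501 CPM in parenchyma. Blood lay above all CNS libraries and parenchyma below all others. The log2 fold change of parenchyma was -1.97 (SE 0.41, adjusted p = 0.00815) against meninges and -1.55 (SE 0.41, adjusted p = 0.0113) against CSF. For neither of these 2 genes did the difference between meninges and CSF pass the test (adjusted p = 0.279 and 0.593).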

How the data were processed

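The deposited files hold raw read counts per Ensembl rat gene identifier, 1 file for each of the 12 libraries, per the file contents. Per the submitters' processing notes, the tools included STAR, HTSeq, SAMtools, DESeq2 and CASAVA 1.8.2, in roles that are not stated. Build, annotation and strand setting: not given in the sources used here, so overlapping antisense genes cannot be told apart. The 5 closing summary lines stayed out of totals and tests. They held 35.8% to 65.2% of entries as aligned to several places, 15.5% to 21.9% as outside genes and 0.0412% to 0.0911% as ambiguous. Reads with several alignments were not counted, so genes with near-identical copies are uncertain.

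The members and the gene lists were chosen with earlier results of these data known. The lists need names and gave no value. The planned rule for identifiers, without names, allowed 2 higher and 2 lower between CNS sites. The 2 largest called rises over the 3 comparisons were taken, then the 2 largest falls among the rest. Members described by rank, the 41 and the 8 were singled out after their values were seen.

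Counts were fitted in R 4.3.3 with edgeR 4.0.16 (filterByExpr, trimmed mean of M values, quasi-likelihood test, all 12 libraries, compartment as the only term). All 78 members are among the 11498 genes tested, as their blood level ensures, and 76 pass the filter on the CNS libraries alone. Adjusted p-values are edgeR's over all genes tested unless DESeq2 1.42.0 is named. The functions were tested on simulated data. The labels give the numbers 1 to 3 in every compartment without saying what they share. Deviations of libraries with the same number correlated at 0.219 to 0.450 in all 9 pairs of CNS sites, over the 0.1 set for pairing, and at 0.0766 in the weakest pair with blood. The main fit left the number out even so, and counts from the fit with the block are given beside its counts between CNS sites. Alternatives were library-size scaling, DESeq2, no filter, the number as a block, a stricter threshold and leaving out libraries.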

Additional observations from a re-analysis of the deposited data

How the results depend on the processing

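The count of members lower in parenchyma than in meninges (25) stayed between 21 and 34, and the count differing between parenchyma and CSF (20) between 15 and 27, over all alternatives run. With 1 library left out they were 22 to 29 and 16 to 20. With the replicate block they were 34 (0 higher) and 27 (3 higher), without the 2 libraries richest in reads aligned to several places 21 and 20, and in the 9 CNS libraries alone, chosen after seeing the data, 24 and 20. The 3 members called between meninges and CSF were 5 with DESeq2, 7 when genes were not filtered, 12 with the replicate block, 0 at an adjusted p under 0.01 and 0 to 3 with 1 library left out. All calls of members against blood numbered 75 to 78 of 78.

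The rule itself gave 320 genes at 2 times, 17 at 4 times and 129 at 1 CPM in blood. It gave 55 genes without blood replicate 3 and 100 without blood replicate 2, the lowest and highest with 1 library left out, and 43 members met it in all 12 such settings. The 45 members that differed between library numbers were 27 to 55 over all alternatives run. The count of 27 came at an adjusted p under 0.01, where 6.28% of all genes tested were called. The log2 fold change of ENSRNOG00000029886 between parenchyma and CSF, -1.83 (adjusted p = 0.474), ran from -2.35 to 0.0267 with 1 library left out, the last without CSF replicate 2. This difference was called in 1 of the 18 alternatives run, which was not among those leaving out 1 library. Library-size scaling moved the median of all genes by less than 0.1 on the log2 scale. Summed levels differed between CNS sites by the same amounts with the replicate block (191 CPM for meninges over CSF), since all numbers are present in each compartment. Levels under 3 counts per library are within the limit that a count of 0 allows.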
